A study of Mus musculus with 18 samples.

Results

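The genes described here encode the basement membrane proteins of the early embryo and 2 of their helpers, 10 in all out of 22180 genes measured: the laminin chains Lama1, Lamb1 and Lamc1, the nidogens Nid1 and Nid2, the collagen IV chains Col4a1 and Col4a2, the perlecan gene Hspg2, the matrix glycoprotein gene Sparc and the collagen chaperone gene Serpinh1. They were listed by name and chosen by measured values, namely their genotype differences at days 0 and 21 in earlier results of these data. Their differences at those days, and the steps within 1 genotype, are therefore given as descriptions with no test.

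Mouse embryonic stem cells without a functional Pax7 gene (Pax7-/-) were set against cells with the intact gene (Pax7+/+), all of an F1 background of C57Bl6N and 129Sv. Each genotype was collected as undifferentiated stem cells at day 0, kept with LIF, as embryoid bodies at day 7 and as embryoid body outgrowths at day 21, both of these without LIF and with RA and ITS. Total RNA of 3 samples per genotype and day, labelled as biological replicates, was hybridised to 18 Affymetrix arrays. The labels do not say how many cell lines or clones stand behind a genotype, and the spread behind each p-value is that between these samples, which may be technical.

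A basement membrane is a thin sheet of extracellular matrix under epithelia. One alpha, one beta and one gamma laminin chain join inside the cell into a cross-shaped trimer, and the trimer of the Lama1, Lamb1 and Lamc1 products is the main laminin of the early embryo. Collagen IV, made of 2 chains from Col4a1 and 1 from Col4a2, forms a separate network, and nidogens and perlecan connect both. Primitive endoderm and its parietal derivative make these proteins in large amounts, and in embryoid bodies an outer endoderm layer lays down a basement membrane under which the inner cells form an epithelium. Where a gene changes in such mixed cultures, fewer cells of a type and less RNA per cell cannot be told apart.

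The values are log2 intensities per probe set, and they came in 2 kinds of array that had to be read apart. The log2 values of 10 arrays spread over their probe sets with an SD of 1.37 to 1.45, and these are called narrow. The 8 wide arrays had an SD of 1.79 to 1.85. Each group held arrays of both kinds, and the labels do not say what the kinds are. Array medians were 4.91 to 4.97 log2 on narrow and 4.55 to 4.68 on wide arrays, so levels are compared within a kind, and fitted differences carry the kind as a block. The Pax7 probe set read 4.76 to 6.37 in Pax7-/- and 4.68 to 6.35 in Pax7+/+ over the 3 days and both kinds of array. Its fitted genotype differences were 0.03 ± 0.23, -0.01 ± 0.24 and 0.25 ± 0.24 log2 at days 0, 7 and 21 (SE, limma adjusted p = 0.98, 0.997 and 0.681). The sources used here do not place its probes within or outside the disrupted sequence, so this reading checks no label. Of 9 pluripotency markers such as Pou5f1 and Nanog, 7 fell from day 0 to day 7 and 0 rose, against 4.99% and 4.78% of all genes.

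All 10 genes had a probe set of their own, and Nid1 had 2, of which the brighter was kept. Their mean level over the 18 arrays lay between the 94.8th and the 99.8th percentile of all genes, Col4a2 being the lowest and Sparc the highest. Between wide and narrow arrays of the same group a gene's level could differ by as much as 3.09 log2 (Nid1), while for Sparc it differed by 0.50 log2 at most. The block takes out 1 constant shift per gene, while the gap of Nid1 ran from 0.47 to 3.09 log2 over the groups. Fitted differences therefore keep the part of the gap that varied between groups.

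Lama1 lies on chromosome 17 (GRCm38.p6, 67697127 to 67822645) and encodes the laminin alpha 1 chain, which carries the parts that bind cell surface receptors. At day 0 it read 7.87, 7.93 and, on the wide array, 9.41 log2 in Pax7-/- cells, against 5.62, 5.62 and 6.82 log2 in Pax7+/+ cells. The genotypes did not overlap on either kind of array, and the fitted difference of 2.38 ± 0.20 log2 (SE, n = 3 per genotype) was 5.22-fold. At day 7 the levels of the genotypes lay close together: Lama1 read 10.49, 10.34 and, wide, 10.96 log2 in Pax7-/- and 10.41 and, wide, 11.08 and 11.04 log2 in Pax7+/+. At day 21 the order was turned. Lama1 read 9.16 and, wide, 10.59 and 10.67 log2 in Pax7-/- outgrowths, against 10.99, 10.77 and, wide, 11.34 log2 in Pax7+/+ outgrowths. That difference was -1.22 ± 0.20 log2, with -1.72 on narrow and -0.71 on wide arrays.

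**Figure D1:**
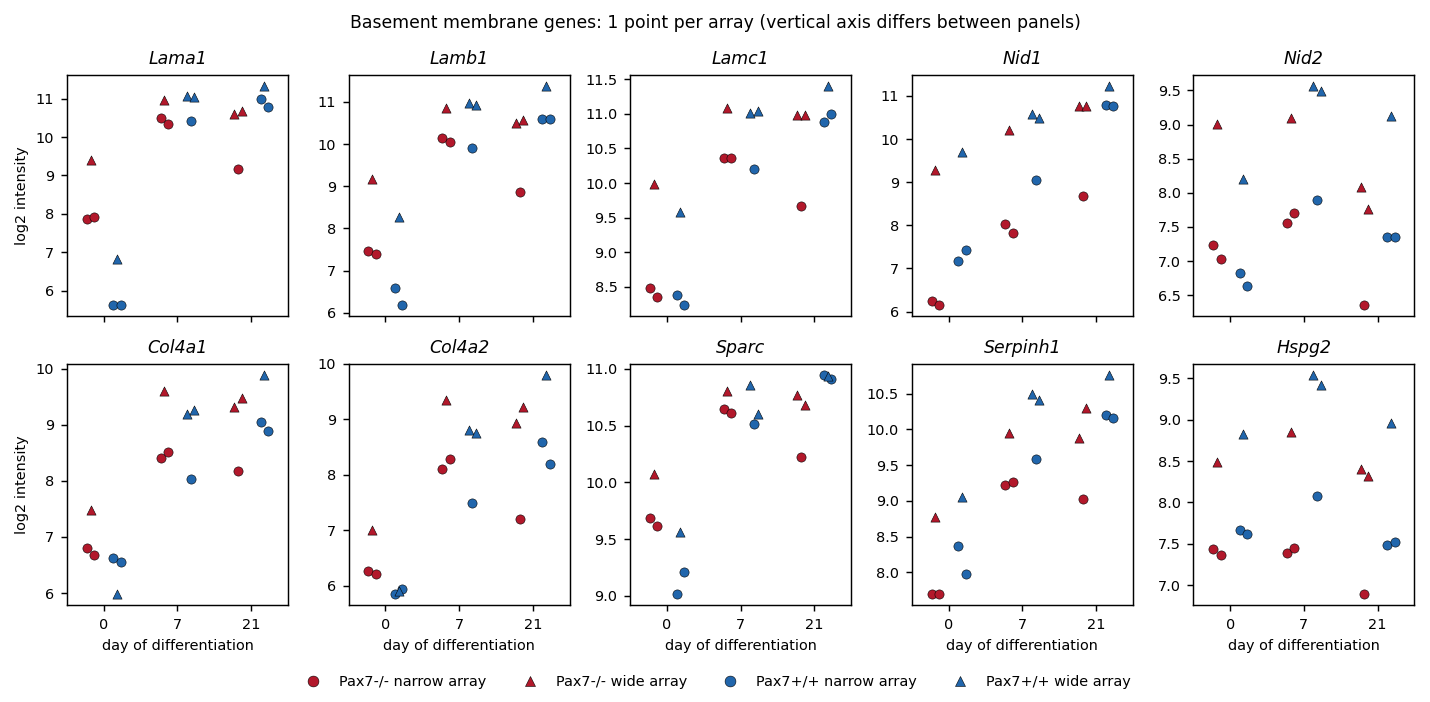
Log2 intensity (vertical axes, which differ between panels) of the 10 genes at days 0, 7 and 21 (horizontal axes), 1 point per array, with Pax7-/- in red to the left of Pax7+/+ in blue, circles for narrow and triangles for wide arrays. At day 0 the Pax7-/- points of Lama1, 7.87 to 9.41, lie above the Pax7+/+ points of the same shape, and at day 21 the Pax7-/- points of each gene lie below the Pax7+/+ points of the same shape.

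Lamb1, on chromosome 12, encodes the beta 1 chain of the same trimer and was on the same side as Lama1 at days 0 and 21. It read 7.46, 7.39 and, wide, 9.18 log2 in Pax7-/- at day 0, against 6.58, 6.18 and, wide, 8.27 log2 in Pax7+/+. At day 21 it read 8.87 and, wide, 10.51 and 10.57 log2 in Pax7-/-, against 10.60, 10.60 and, wide, 11.39 log2 in Pax7+/+. The fitted differences were 1.00 ± 0.22 log2 at day 0 and -1.32 ± 0.22 log2 at day 21 (SE, n = 3 per genotype).

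Lamc1, on chromosome 1, encodes the gamma 1 chain, which most laminins share. Already at day 0 it stood at 8.48, 8.36 and, wide, 9.99 log2 in Pax7-/-, against 8.39, 8.23 and, wide, 9.58 log2 in Pax7+/+, so that the genotypes overlapped on narrow arrays. Of the 3 laminin chains it had the smallest genotype difference at day 0, 0.21 ± 0.18 log2, which came to -0.00 without Pax7-/- replicate 2. At day 21 it was lower in Pax7-/- on both kinds of array, by -1.28 log2 on narrow and -0.43 on wide arrays.

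The promoter window of Lamb1 is shown because it is the laminin chain among these genes for which RefSeq's table gave one. Windows of 300 bases, 250 before and 50 after the annotated start, were matched for 7 of the 10 genes (GRCm38.p6), all but Lama1, Lamc1 and Nid2. For Lamb1, Col4a1 and Hspg2 the start used lies inside the RefSeq span of the gene. Capitals mark the CCAAT box and the GC box GGGCGG, searched on both strands with no overlap between them, so that ATTGG and CCGCCC are the same motifs on the other strand. The span of Lamb1 begins at 31265146, so the later part of the bases shown, with the GC boxes, lies within the gene. The 250 bases before the start used, chr12:31265043-31265292 on the plus strand, are:
Lamb1: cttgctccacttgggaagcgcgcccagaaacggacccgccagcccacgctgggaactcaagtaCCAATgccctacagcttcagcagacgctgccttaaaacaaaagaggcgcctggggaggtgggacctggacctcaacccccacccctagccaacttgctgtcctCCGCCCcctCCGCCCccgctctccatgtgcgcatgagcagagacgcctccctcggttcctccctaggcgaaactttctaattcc
The 300-base windows held a CCAAT box in 4 of the 7 genes and a GC box in 6, against 37.4% and 35.6% of the 32817 windows in the table. These matches describe letters and show no binding.

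Nidogens bind the short arm of the laminin gamma 1 chain and tie it to collagen IV. Nid1, on chromosome 13, did not follow the laminins at day 0: it read 6.24, 6.14 and, wide, 9.28 log2 in Pax7-/-, against 7.18, 7.43 and, wide, 9.71 log2 in Pax7+/+. It was lower in Pax7-/- at day 7 as well, with 8.04, 7.83 and, wide, 10.22 log2 against 9.04 and, wide, 10.59 and 10.50 log2 in Pax7+/+. At day 21 Nid1 had the largest fitted difference of the 10 genes, -1.52 ± 0.36 log2 (SE, n = 3 per genotype). Its size rested on the kind of array. It was -2.10 log2 on narrow arrays, with 8.68 in Pax7-/- against 10.79 and 10.76 in Pax7+/+, and -0.48 on wide arrays, with 10.77 and 10.76 in Pax7-/- against 11.24 in Pax7+/+. The dimmer probe set of Nid1 was also lower in Pax7-/- at each day without overlap on either kind of array, by -1.58 log2 on narrow and -0.76 on wide arrays at day 21.

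Nid2, on chromosome 14, encodes the other nidogen and changed sides early. At day 0 it read 7.24, 7.04 and, wide, 9.0 log2 in Pax7-/-, against 6.82, 6.64 and, wide, 8.20 log2 in Pax7+/+. At day 21 it read 6.35 and, wide, 8.08 and 7.77 log2 in Pax7-/-, against 7.35, 7.35 and, wide, 9.13 log2 in Pax7+/+. The fitted differences, 0.54 ± 0.12, -0.32 ± 0.12 and -1.09 ± 0.12 log2 at days 0, 7 and 21, had nearly the same size on both kinds of array at day 21 (-1.0 on narrow and -1.20 on wide). The nidogens therefore stood on opposite sides at day 0, Nid1 by -0.88 ± 0.35 and Nid2 by 0.54 ± 0.12 log2. The Nid1 value was -1.33 without Pax7-/- replicate 2 of day 0, the wide array of that group, and -0.43 on wide arrays alone. The window before the Nid1 start, chr13:13437352-13437601 on the plus strand, is shown with the same motifs in capitals as an example of a promoter whose gene was lower in Pax7-/- at each day:
Nid1: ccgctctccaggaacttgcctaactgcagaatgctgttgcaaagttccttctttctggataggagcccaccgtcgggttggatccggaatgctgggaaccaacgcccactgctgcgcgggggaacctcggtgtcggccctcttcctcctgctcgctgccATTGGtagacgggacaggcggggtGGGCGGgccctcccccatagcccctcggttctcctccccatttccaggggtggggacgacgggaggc

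Col4a1 and Col4a2 lie head to head on chromosome 8 and are transcribed away from each other from a shared promoter. RefSeq places Col4a1 at 11198423 to 11312889 on the minus strand and Col4a2 at 11312805 to 11449287 on the plus strand (GRCm38.p6), an overlap of 85 bases. Their promoter windows share 78 bases, chr8:11312777-11312854, which lie within the span given for Col4a1 and partly within that of Col4a2. The Col4a1 window was thus placed by a start inside that span. The shared bases are shown on the plus strand as those of the pair:
Col4a1 and Col4a2: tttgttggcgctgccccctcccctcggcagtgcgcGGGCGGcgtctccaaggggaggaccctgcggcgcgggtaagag
The capitals mark a GC box, and no CCAAT box is in these 78 bases. Over the 18 arrays, with each kind of array centred, the levels of Col4a1 and Col4a2 correlated at r = 0.986, the highest of the 45 pairs among the 10 genes. This is a description over arrays that share day and genotype, and the median of the pairs was 0.810.

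At day 0 Col4a2 read 6.27, 6.21 and, wide, 7.01 log2 in Pax7-/-, against 5.85, 5.95 and, wide, 5.90 log2 in Pax7+/+. Col4a1 read 6.80, 6.67 and, wide, 7.48 log2 in Pax7-/-, against 6.63, 6.55 and, wide, 5.98 log2 in Pax7+/+. The difference of Col4a1, 0.60 ± 0.28 log2 in the fit, was thus 0.15 log2 on narrow and 1.51 on wide arrays, and it came to 0.04 without Pax7+/+ replicate 3, the wide array of that group. Col4a2 gave 0.60 ± 0.26 log2 with that array and 0.16 without it.

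In the outgrowths at day 21 both collagen chains were lower in Pax7-/-. Col4a2 read 7.21 and, wide, 8.93 and 9.23 log2 in Pax7-/-, against 8.59, 8.19 and, wide, 9.81 log2 in Pax7+/+, a fitted difference of -0.77 ± 0.27 log2 that came to -0.40 without Pax7-/- replicate 1. Col4a1 differed by -0.55 ± 0.28 log2. The 365 brighter genes of chromosome 8 (above the 75th percentile of mean level) had median genotype differences of 0.15, 0.24 and 0.35 log2 at days 0, 7 and 21, all above those of other chromosomes (-0.06, -0.02 and 0.09 log2). The part of this shift in the collagen IV values was not tested.

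Sparc, on chromosome 11, encodes a glycoprotein that binds collagen IV and is among the most abundant products of parietal endoderm. It had the highest mean level of the 10 genes and, in the fit, the smallest genotype difference at day 21. It read 9.69, 9.61 and, wide, 10.07 log2 in Pax7-/- at day 0, against 9.01, 9.21 and, wide, 9.57 log2 in Pax7+/+, and the fitted difference was 0.53 ± 0.12 log2. At day 21 it read 10.22 and, wide, 10.77 and 10.68 log2 in Pax7-/-, against 10.95, 10.92 and, wide, 10.94 log2 in Pax7+/+, a difference of -0.47 ± 0.12 log2. It was -0.71 on narrow arrays, where that of Hspg2 was smaller (-0.62), and -0.21 on wide arrays. The 510 brighter genes of chromosome 11 had median differences of 0.16, 0.27 and 0.35 log2 at the 3 days. Those of other chromosomes were -0.06, -0.02 and 0.09 log2. At day 21, 87 of the 510 genes (17.1%) were lower in Pax7-/-, as Sparc was. The part of this shift in the Sparc values was not tested.

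Serpinh1, on chromosome 7, encodes Hsp47, the chaperone of the endoplasmic reticulum that binds folded procollagen. It was lower in Pax7-/- at each day. At day 0 it read 7.69, 7.70 and, wide, 8.77 log2 in Pax7-/-, against 8.37, 7.98 and, wide, 9.05 log2 in Pax7+/+. At day 21 it read 9.02 and, wide, 9.87 and 10.29 log2 in Pax7-/-, against 10.20, 10.16 and, wide, 10.77 log2 in Pax7+/+. The fitted differences were -0.41 ± 0.13, -0.40 ± 0.14 and -0.94 ± 0.14 log2 at days 0, 7 and 21 (SE, n = 3 per genotype). Its promoter, chr7:99353240-99353489 on the minus strand, is shown as that of the collagen helper in the set, with its GC box in capitals:
Serpinh1: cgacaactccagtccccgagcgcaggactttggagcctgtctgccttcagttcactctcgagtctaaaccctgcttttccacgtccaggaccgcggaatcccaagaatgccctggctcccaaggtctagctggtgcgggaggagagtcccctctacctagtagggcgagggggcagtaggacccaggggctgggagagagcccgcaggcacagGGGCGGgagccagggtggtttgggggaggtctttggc

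Hspg2, on chromosome 4, encodes perlecan, the large heparan sulfate proteoglycan of basement membranes. At day 7, the day whose genotype difference had not been used to list the genes, it read 7.39, 7.44 and, wide, 8.85 log2 in Pax7-/- embryoid bodies, against 8.07 and, wide, 9.55 and 9.42 log2 in Pax7+/+ embryoid bodies. The genotypes did not overlap on either kind of array. The difference of -0.67 ± 0.10 log2 (SE, n = 3 per genotype, limma adjusted p = 0.009) was 1.59-fold, and Hspg2 was the only 1 of the 10 genes to pass at day 7, where 0.627% of all genes passed (0.32% higher and 0.307% lower). Among the 2218 genes above the 90th percentile of mean level the shares were 1.71% and 1.62%. At an unadjusted p under 0.05 there were 4 of the 10. Of all genes 11.3%, 9.96% and 17.3% reached that limit between genotypes at days 0, 7 and 21, and 22.8% did over the step from day 0 to day 7. The call was lost without the block (-1.12 log2, adjusted p = 0.928), where 0 of all genes passed at day 7. It was also lost on narrow arrays alone (-0.66 log2, adjusted p = 0.125), on wide arrays alone (-0.64 log2, adjusted p = 0.0869) and without Pax7+/+ replicate 2 of day 7 (-0.63 log2, adjusted p = 0.0525).

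The other 9 genes did not pass at day 7. Their differences ran from -0.69 ± 0.36 log2 for Nid1 (adjusted p = 0.564) to 0.59 ± 0.27 log2 for Col4a2 (adjusted p = 0.481), and those of the 3 laminin chains from 0.08 ± 0.20 to 0.20 ± 0.18 log2. On wide arrays alone Lama1 (-0.10 log2) and Lamb1 (-0.09 log2) lay below 0. A miss of the threshold does not show that the genotypes were alike. Without overlap on either kind of array, 3 genes were higher and 4 lower, beside 15.3% and 16.8% of all genes.

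**Figure D2:**
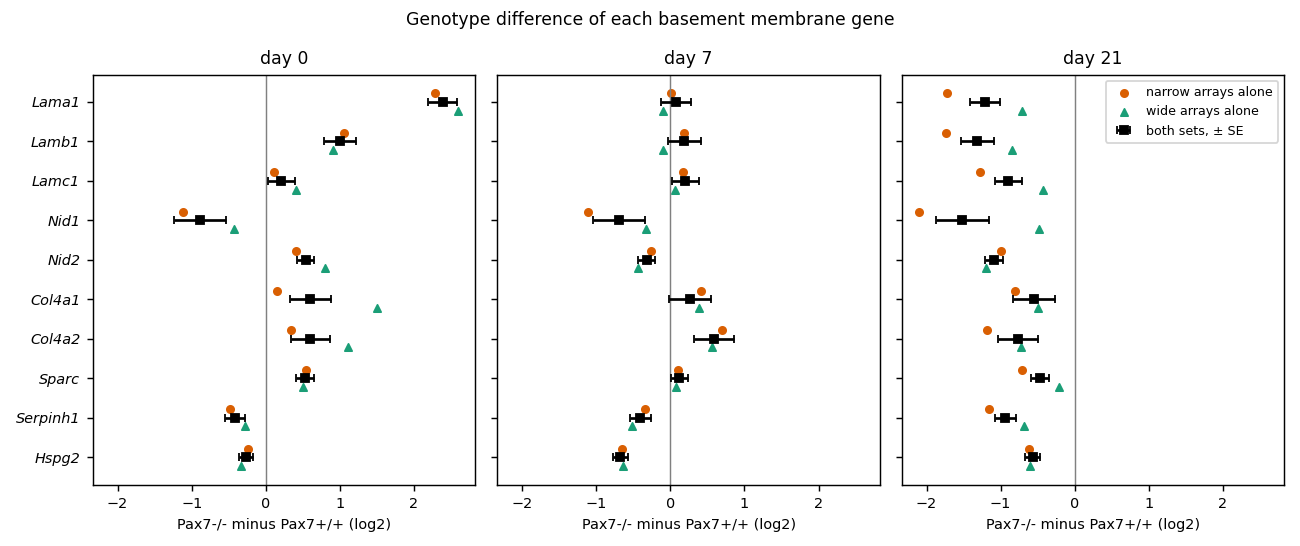
Difference between Pax7-/- and Pax7+/+ (horizontal axis, log2) of each gene at days 0, 7 and 21, as fitted over all arrays with its SE (black squares, n = 3 arrays per genotype) and on narrow (circles) or wide (triangles) arrays alone. Lama1 stands at 2.38 at day 0, the differences lie between -0.69 and 0.59 at day 7, and each lies below 0 at day 21.

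Read together at the days that were known when the genes were listed, the genes lay on both sides of 0 at day 0 and on 1 side at day 21. At day 0, 6 genes were higher in Pax7-/- without overlap on either kind of array (Lama1, Lamb1, Nid2, Col4a1, Col4a2 and Sparc), 3 were lower (Nid1, Serpinh1 and Hspg2) and Lamc1 overlapped, beside 12.1% and 12.7% of all genes. At day 21 all 10 were lower without overlap, beside 17.3% of all genes that were lower and 18.8% that were higher. The 3 genes lower at day 0 were lower without overlap at all 3 days, beside 0.645% of all genes, and the 6 higher at day 0 turned sides by day 21, beside 1.61%. The median over the set was 0.53 log2 at day 0, 0.10 at day 7 and -0.92 at day 21, where that over all genes was between -0.01 and 0.01. At day 21 the difference was further below 0 on narrow than on wide arrays in 9 of the 10 genes, Nid2 being the exception, and Pax7-/- replicate 1 is the one narrow array of that group. The medians at day 21 were -1.17 log2 on narrow and -0.64 on wide arrays.

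From day 0 to day 7 the whole set rose. This step was tested as the mean of both genotypes, an estimate whose correlation with the known genotype differences is 0 for day 0 and 0.03 for day 21. The genes were still chosen with earlier results of the same arrays known, so their count over a step is no independent support. All 10 genes passed and were higher at day 7. Of all genes 9.77% passed, 4.78% higher and 4.99% lower, and above the 90th percentile of mean level 15.1% were higher and 19.5% lower. Lama1 rose most, by 3.35 ± 0.14 log2 (10.2-fold, limma adjusted p = 1.21e-09, n = 6 arrays per day). Lamb1 rose by 2.75 ± 0.15, Col4a2 by 2.09 ± 0.19, Col4a1 by 2.02 ± 0.20, Lamc1 by 1.67 ± 0.13 and Serpinh1 by 1.42 ± 0.10 log2. Nid1 rose by 1.38 ± 0.25, Sparc by 1.10 ± 0.08, Nid2 by 0.79 ± 0.08 and Hspg2 by 0.33 ± 0.07 log2 (adjusted p = 0.00737). Without the block 5 of the 10 passed, among 25 of all 22180 genes, and on narrow arrays alone Hspg2 did not (0.23 log2, adjusted p = 0.276).

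The steps within each genotype, given without a test, show where the Lama1 values met. The step of Lama1 was 2.20 ± 0.20 log2 in Pax7-/- and 4.50 ± 0.20 log2 (22.6-fold) in Pax7+/+. The steps of Lamc1 (1.66 ± 0.18 in Pax7-/- and 1.67 ± 0.18 in Pax7+/+), Serpinh1 (1.42 ± 0.13 and 1.41 ± 0.14) and Col4a2 (2.08 ± 0.26 and 2.09 ± 0.27) differed by less than their SE between genotypes. In 8 of the 10 genes the step was larger in Pax7+/+.

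**Figure D3:**
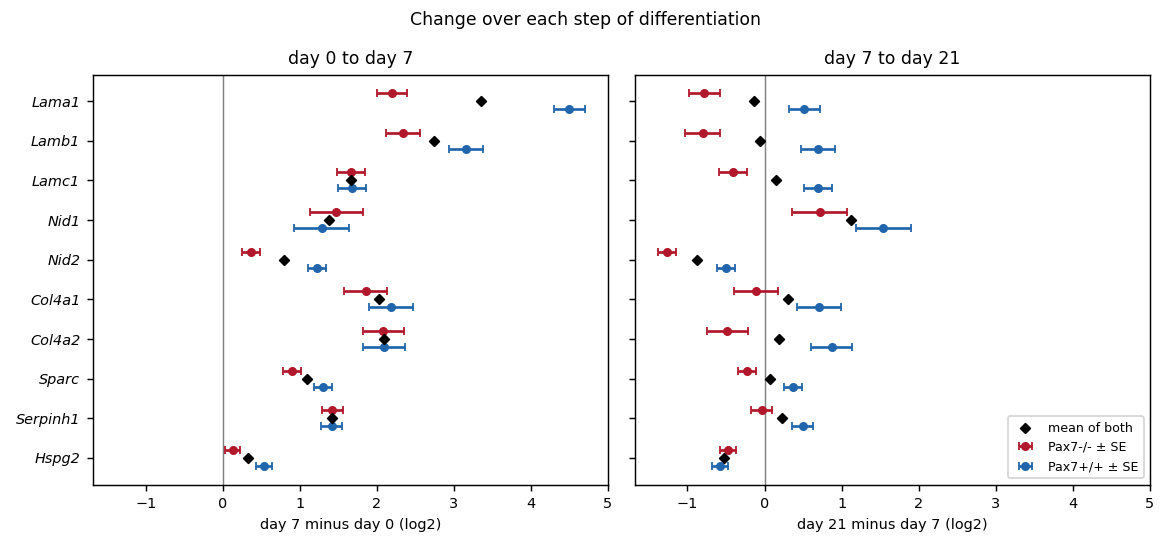
Change of each gene from day 0 to day 7 (left) and from day 7 to day 21 (right), in log2 on the horizontal axis, for Pax7-/- (red) above Pax7+/+ (blue) with SE and for the mean of both (black diamonds). On the left the means of all 10 genes lie above 0, from 0.33 for Hspg2 to 3.35 for Lama1, and on the right those of Nid2 and Hspg2 lie below 0 and that of Nid1 above.

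From day 7 to day 21 the set no longer moved as one. As the mean of both genotypes, Nid1 rose further by 1.13 ± 0.25 log2 (limma adjusted p = 0.0119, n = 6 arrays per day), Nid2 fell by 0.88 ± 0.08 on the log2 scale (adjusted p = 2.25e-05) and Hspg2 fell by 0.52 ± 0.07 (adjusted p = 0.000436). The other 7 did not pass, and of all genes 7.32% passed, of which 2.5% rose and 4.82% fell. Above the 90th percentile of mean level 4.96% rose and 20.9% fell, a share close to the 2 of 10 that fell here. In 7 of the 10 genes the step was above 0 in Pax7+/+ and below 0 in Pax7-/-, among them Lama1 (-0.78 ± 0.20 log2 in Pax7-/- and 0.51 ± 0.20 in Pax7+/+), Lamb1 (-0.81 ± 0.22 and 0.70 ± 0.22) and Col4a2 (-0.48 ± 0.27 and 0.87 ± 0.27). The Pax7-/- steps of Serpinh1 (-0.04 ± 0.14) and Col4a1 (-0.11 ± 0.28) lay within their SE of 0. The steps of Hspg2 and Nid2 lay below 0 in both genotypes and those of Nid1 above 0 in both. Without the block 0 of the 10 genes passed by limma over this step, with the same estimates for Nid1, Nid2 and Hspg2, and 7 of all 22180 genes passed. From day 0 to day 21, 8 of the 10 were higher and Nid2 (-0.09 log2) and Hspg2 (-0.19 log2) did not pass, where 22.1% of all genes passed (10.2% higher and 12.0% lower).

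Other genes of the basement membrane were counted from lists set up by function, 46 measured genes in all. The lists were drawn up with earlier results of these data known, so their calls between genotypes are no independent support. Of the 7 other laminin chains (Lama2 to Lama5, Lamb2, Lamb3 and Lamc3), 0 passed in either direction from day 0 to day 7, with a median of -0.07 log2. At an unadjusted p under 0.05 there was 1, Lamb2 (0.31 ± 0.11 log2, adjusted p = 0.097), whose value was close to the 0.33 log2 of Hspg2 and which was higher at day 21 than at day 0 by 0.60 ± 0.11 log2 (adjusted p = 0.0012). The collagen IV chains Col4a3 to Col4a6, which form the other collagen IV networks, gave 0 of 4 as well, 0 at an unadjusted p under 0.05, with a median of 0.09 log2. From day 0 to day 21 Col4a5 (0.44 ± 0.10 log2, limma adjusted p = 0.004) and Col4a6 (0.36 ± 0.11 log2, adjusted p = 0.0292) were higher. Col4a3 and Col4a4 did not pass over that span. Between genotypes 1 gene of these lists passed, Lama5, which encodes the alpha 5 chain. It was lower in Pax7-/- at day 21 by -0.51 ± 0.12 log2 (adjusted p = 0.027). Lama5 was also lower at day 0 (-0.48 ± 0.12 log2, adjusted p = 0.072) and day 7 (-0.33 ± 0.12, adjusted p = 0.32), without passing. From day 0 to day 21 it fell as the mean of both genotypes (-0.43 ± 0.09 log2, adjusted p = 0.0024).

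The enzymes that fold, modify and crosslink collagen moved with the set. Of 12 measured, 10 rose from day 0 to day 7, 0 fell and 2 did not pass, with a median of 0.83 log2 against -0.01 for all genes. The lysyl hydroxylase gene Plod2 rose by 2.30 ± 0.16 log2 (adjusted p = 2.1e-07), the prolyl 4-hydroxylase subunit gene P4ha1 by 2.12 ± 0.16, the prolyl 3-hydroxylase gene P3h2 by 1.69 ± 0.32, and the peroxidasin gene Pxdn, whose product crosslinks collagen IV, by 1.53 ± 0.09. At day 21, 4 of the 12 were lower in Pax7-/- and 0 higher, where 4.89% of all genes passed, 1.07% lower and 3.82% higher. Plod2 came to -1.29 ± 0.23 log2 (adjusted p = 0.00359), P4ha1 to -1.17 ± 0.23, Plod1 to -0.76 ± 0.21 and Pxdn to -0.61 ± 0.13. At day 0 P4hb, the other subunit of prolyl 4-hydroxylase, was higher by 0.80 ± 0.17 log2 (adjusted p = 0.0287), where 1.28% of all genes passed, 0.388% higher and 0.893% lower.

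Plod2 read 7.60 and, wide, 9.91 and 9.92 log2 in Pax7-/- at day 21, against 9.24, 9.37 and, wide, 10.66 log2 in Pax7+/+, with no overlap on either kind of array. In the list of 12 further matrix components, Tinagl1, which encodes a laminin-associated matricellular protein, was the 1 gene to pass at day 21. It read 8.60 and, wide, 9.89 and 10.07 log2 in Pax7-/-, against 10.36, 10.19 and, wide, 10.93 log2 in Pax7+/+, a difference of -1.31 ± 0.15 log2 (adjusted p = 0.000208). From day 0 to day 7 Tinagl1 (2.09 ± 0.10 log2), Fbln1 (0.58 ± 0.12) and Smoc1 (0.39 ± 0.11) rose and Fbln2, a fibulin gene, fell by 2.05 ± 0.29 on the log2 scale. Of 11 receptor genes 0 passed between genotypes at any day, with 2, 1 and 3 at an unadjusted p under 0.05 at days 0, 7 and 21, beside 11.3%, 9.96% and 17.3% of all genes. From day 0 to day 7 Ddr1, a collagen receptor gene, rose by 0.56 ± 0.12 log2, and the laminin receptor gene Bcam and the integrin gene Itga2 fell by 0.92 ± 0.16 and 0.76 ± 0.18.

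Over the 46 genes, 1 was higher and 0 lower in Pax7-/- at day 0, 0 passed at day 7 (6 at an unadjusted p under 0.05) and 6 were lower and 0 higher at day 21. Without the block 0 of them passed at each day, and neither did any of all 22180 genes (0 calls). The 6 became 12 after quantile normalization, 1 of them higher, where the calls over all genes went up to 1382 in place of 1085, and 3 without Pax7-/- replicate 2 of day 21. The change of the genotype difference between days 0 and 21 passed for 5 of the 46, among 1.86% of all genes.

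**Figure D4:**
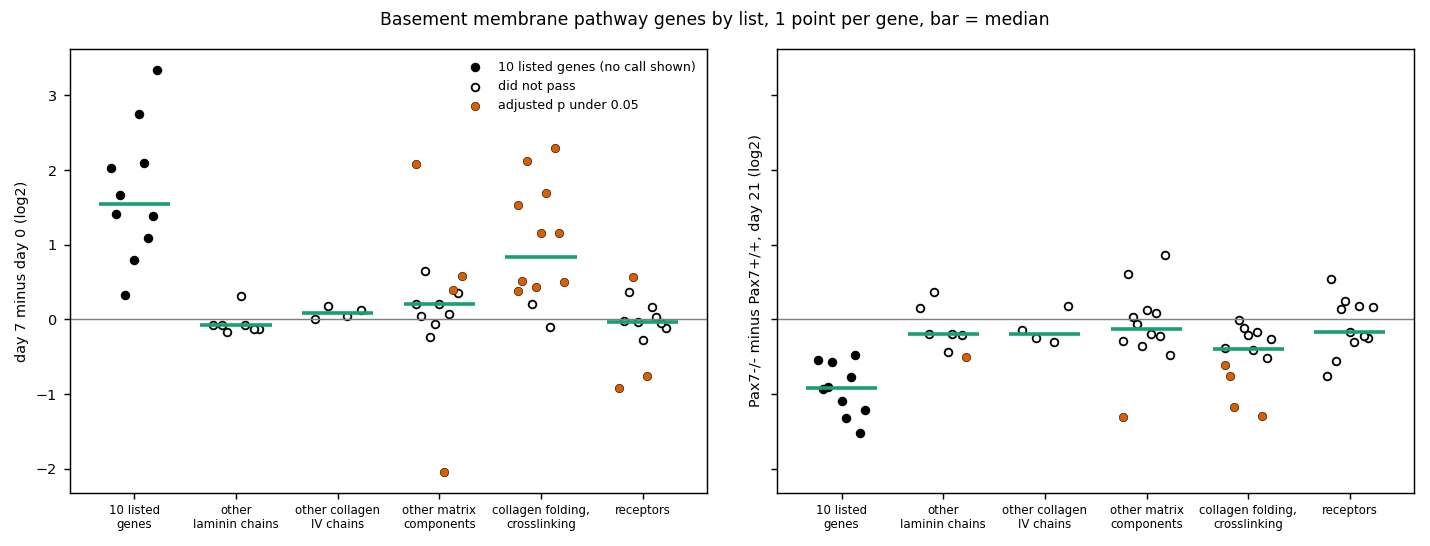
Change from day 0 to day 7 as the mean of both genotypes (left, log2) and difference between Pax7-/- and Pax7+/+ at day 21 (right, log2) for the 10 listed genes and 5 lists of other basement membrane genes, 1 point per gene, orange where limma's adjusted p was under 0.05 and with a bar at the median. The collagen folding and crosslinking list (median 0.83) lies above 0 on the left, while the other laminin chains (median -0.07) lie near 0.

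Over the step from day 0 to day 7, markers of endoderm cells, which make these proteins, mostly rose, as the set did. Of 13 parietal endoderm markers outside the set, 12 rose and 1 fell, with Gata6, a transcription factor of primitive endoderm, at 2.49 log2. Of 9 visceral endoderm markers such as Afp, 8 rose. Of all genes 4.78% were higher and 4.99% lower over this step. Between genotypes 1 of the 9 visceral markers was higher in Pax7-/- at day 0 (Cubn, 1.85 log2), and 0 passed at days 7 and 21 (2 and 3 at an unadjusted p under 0.05). Visceral list means at day 0 were 6.36 to 6.39 and, wide, 5.73 log2 in Pax7-/-, against 6.21 to 6.22 and, wide, 5.06 in Pax7+/+. At day 7 they were 7.35 to 7.37 and, wide, 8.25 in Pax7-/-, against 6.98 and, wide, 7.56 to 7.97 in Pax7+/+. At day 21 they were 6.39 and, wide, 6.23 to 7.06 in Pax7-/-, against 6.88 to 6.93 and, wide, 8.42 in Pax7+/+. At day 0, 2 parietal markers were higher in Pax7-/-, Gata6 (1.26 ± 0.27 log2) and the keratin gene Krt18 (0.93), and 0 lower. The mean level of that list at day 0 was 6.34 to 6.40 log2 on narrow arrays and 6.69 on the wide one in Pax7-/-, against 6.13 to 6.17 and 5.98 in Pax7+/+. At day 7, where the median difference of the 10 genes was 0.10 log2, the parietal list mean was lower in Pax7-/-, with 7.14 to 7.16 on narrow arrays and 8.12 on the wide one, against 7.24 and 8.30 to 8.32 in Pax7+/+. At day 21, 2 of the 13 were lower in Pax7-/- (Krt18 and Dab2) and 0 higher, and the list mean was 6.75 on the narrow and 7.78 to 7.83 on the wide arrays in Pax7-/-, against 7.23 to 7.35 and 8.50 in Pax7+/+. Their part in the differences of the 10 genes was not tested.

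Of the 9 pluripotency markers, 0 passed between genotypes at days 0 and 7 (1 and 1 at an unadjusted p under 0.05). At day 21, when all 10 genes were lower in Pax7-/-, Sox2 (1.41 ± 0.21 log2, adjusted p = 0.001) and Nanog (1.37 ± 0.33 log2, adjusted p = 0.0249) were higher and Klf4 lower (-1.20 ± 0.16 log2, adjusted p = 0.00055), with a list median of 0.11 log2. The list mean at day 21 was 5.82 and, wide, 6.77 log2 in Pax7-/-, against 5.90 to 5.96 and, wide, 5.89 log2 in Pax7+/+, and the part of these cells in the results was not tested.

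Fibroblasts also make nidogens and collagen chaperones, and their markers had list means at day 0 of 5.79 to 5.81 and, wide, 6.21 log2 in Pax7-/-, against 6.08 to 6.13 and, wide, 7.18 log2 in Pax7+/+. At day 7 the list means were 5.80 to 5.81 and, wide, 6.51 log2 in Pax7-/-, against 5.59 and, wide, 5.77 to 5.91 log2 in Pax7+/+. Nid1 and Serpinh1 were lower in Pax7-/- at day 7, and how they relate to these means was not tested. At day 21 the means were 5.73 and, wide, 6.45 to 7.18 log2 in Pax7-/-, against 6.11 to 6.39 and, wide, 7.75 log2 in Pax7+/+. Between genotypes 0 of 10 passed at days 0 and 7 (4 and 3 at an unadjusted p under 0.05), and Dcn was lower at day 21 by -1.25 ± 0.31 log2. Of 9 endothelial markers 0 passed between genotypes at each day, with 0, 0 and 1 at an unadjusted p under 0.05. From day 0 to day 7 the fibroblast markers Dcn (-2.02 log2), Thy1 (-1.18) and Prrx1 (-0.96) fell, and no other of that list passed. Among endothelial markers Pecam1 fell (-0.79 log2) and Flt1 rose (0.89 log2) over that step, and no other passed. The part of either cell type in the results was not tested.

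Among genes outside the set, those whose levels ran closest to the mean of the 10 over the 18 arrays, with each kind of array centred, were Plod2 (Pearson r = 0.987), Tinagl1 (0.983), P4ha1 (0.972), Dab2 (0.970) and Kit (0.970). For Lama1 alone they were Srgn (0.976), Slc16a1 (0.961) and Gata6 (0.954). Within the set, Lamb1 and Sparc correlated at 0.985, Lamb1 and Lamc1 at 0.982 and Lama1 and Sparc at 0.979, whereas Hspg2 correlated at 0.04 with Col4a1 and 0.08 with Lama1. Its highest pair was with Nid2, at 0.732, which was also the highest of Nid2, whose other pairs ran from 0.149 with Nid1 to 0.522 with Lama1. Days and genotypes are shared by all these points, so the coefficients describe the arrays and carry no p.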

How the data were processed

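The authors deposited log2 intensities per probe set for 18 arrays, and RMA and Partek are the tools in the submitters' processing notes, which give no version. Centring, and whether 1 joint summary was made, are not given in the sources used here. The annotation gave 1 gene symbol to 23521 of 41345 probe sets, several to 1814 and none to 16010. The probe set with the highest mean was kept per symbol (22180 genes), with no filter on low signal. The 10 genes and all lists were chosen with earlier results of these data known.

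Arrays with an SD over probe sets above 1.6 were called wide. Differences were fitted with limma 3.58.1 in R 4.3.3 (6 group means, the array kind as a fixed block, 11 residual degrees of freedom, eBayes), and a gene passed where its p, adjusted over all genes after Benjamini-Hochberg, was under 0.05. Precision is limited by the number of arrays. The code was tested on simulated data. Same-numbered samples of a day had deviations correlating between -0.215 and 0.231, so numbers were not used as pairs. All 10 genes were named. From the lists of other genes up to 4 passing genes, or up to 2 where none passed, and the 5 and 3 most similar genes were named by rule, with further ones chosen after their values were seen. Alternatives covered the block, scaling, a filter, probe sets, the variance trend, each array kind alone and leaving out each array. Gene positions and promoters come from RefSeq (GRCm38.p6). Figures used Python 3.11.15 and matplotlib 3.10.9.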

Additional observations from a re-analysis of the deposited data

Results flagged for a closer look

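In 6 of the 10 genes every Pax7-/- array lay above the Pax7+/+ arrays of its kind at day 0 and below them at day 21, as in 1.61% of all genes. The genotype difference at day 21 minus that at day 0 was -3.60 log2 for Lama1, -2.32 for Lamb1, -1.63 for Nid2, -1.36 for Col4a2, -1.15 for Col4a1 and -1.0 for Sparc. These changes were not tested, since both differences were known when the genes were listed.

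Of the 46 other basement membrane genes, also listed with earlier results known, 5 passed limma's test of the same change between days (1.86% of all genes). Plod2 changed by -1.98 ± 0.32 log2 (SE, n = 3 per group, adjusted p = 0.00548), P4ha1 by -1.60 ± 0.32 (adjusted p = 0.0166), Tinagl1 by -1.39 ± 0.21 (adjusted p = 0.00332) and P4hb by -1.0 ± 0.24 (adjusted p = 0.0455). Itgb1, the integrin beta 1 chain of most laminin and collagen receptors, changed the other way by 1.02 ± 0.25 (adjusted p = 0.0463), with -0.47 log2 at day 0 and 0.55 at day 21.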

How the results depend on the processing

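Of the 10 genes, 1 passed between genotypes at day 7, 10 over the step to day 7 and 3 over the step to day 21, and of the 46 others 1, 0 and 6 passed between genotypes at days 0, 7 and 21. Without the block these became 0, 5, 0, 0, 0 and 0, while over all genes the calls between genotypes went to 0 at each day and those of the steps to 25 and 7. With a replicate block beside the array kind they were 1, 10, 3, 1, 0 and 4. Over all genes 238, 58 and 856 then passed between genotypes at days 0, 7 and 21. On wide arrays alone, with 2 residual degrees of freedom, the 1 at day 7 became 0, and the 1, 0 and 6 became 9, 1 and 10, while over all genes 1142, 410 and 1901 passed in place of 284, 139 and 1085. On narrow arrays alone the gene that passed at day 7 was Nid1 (-1.11 log2, adjusted p = 0.03) in place of Hspg2, and the 1 at day 0 became 0. Centring with 1 common SD gave 0 at day 0 and 11 at day 21, while 335 and 1170 of all genes passed. Quantile normalization gave 12 at day 21, where 1382 of all genes passed. Leaving out 1 array at a time gave 0 to 1, 10, 3 to 4, 0 to 2, 0 to 1 and 3 to 8. Over all genes the calls at day 21 then ran from 659 to 1284. The Nid1 difference at day 21 ran from -2.22 log2 (without Pax7+/+ replicate 2) to -0.48 (wide arrays alone), and those of Lama1, Lamb1 and Lamc1 were -0.89, -0.88 and -0.55 without the block. The day 21 differences of all 10 genes and the passing values of Hspg2, Nid1 and Nid2 kept their sign under each alternative run, as did the day 0 differences except Lamc1 (-0.00 without Pax7-/- replicate 2). Among values that did not pass, those of Lama1, Lamb1 and Lamc1 at day 7 turned below 0 without the block (-0.24, -0.25 and -0.14 log2). Those of Lama1 and Lamb1 were also below 0 on wide arrays alone (-0.10 and -0.09 log2). With 1 array left out, that of Lama1 reached -0.02 log2. The causes were not tested.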
